A study of Mus musculus with 2 samples.

Results

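The genes described here are 8 that encode proteins of tight and gap junctions, out of 31053 features in the count tables. They were taken by symbol: the tight junction genes Cldn1, Cldn4, Ocln, F11r and Tjp1, and the gap junction genes Gja1, Gjb2 and Gjb6. All 8 symbols were found once in each table. The study induced miR-205, a microRNA abundant in skin epithelium, in mouse back skin during the resting phase of the hair cycle and profiled dissociated cells with droplet-based 3′ single-cell RNA-seq, in which each captured transcript is counted as 1 unique molecular identifier (UMI). There was 1 library from a control mouse and 1 from a miR-205-inducible mouse. Both mice were of strain C57BL/6 per the labels, were matched for gender, carried the K14-H2BGFP allele that lights up epithelial nuclei, and were taken at postnatal day 53. In the inducible mouse a pTRE2-miR-205 transgene was driven by Krt14-rtTA, which is active in basal skin epithelium, so dermal, immune and pigment cells were not its target. This mouse received doxycycline chow for 4 days from postnatal day 49. The extraction protocol states that both mice were fed doxycycline, whereas the control is also labelled untreated, and which of the transgenes the control carried was not given. Cells were sorted on surface proteins and H2BGFP into 3 parts epidermal, 5 parts hair follicle and 2 parts dermal, so shares of cell types follow the sort.

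Tight junctions seal the space between neighbouring epithelial cells. Claudins form their strands, occludin and junctional adhesion molecules sit beside them, and ZO proteins tie the complex to the actin cytoskeleton. Gap junctions are channels made of connexins through which small molecules and ions pass from cell to cell. In skin, the tight junction barrier is known from the granular layer of the epidermis, while connexin 43 is the widely used connexin of basal keratinocytes, hair follicles and dermal fibroblasts.

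The product of the transgene is shown first. Each comparison below is between the library of the miR-205-inducible mouse and that of the control mouse. The mature miR-205-5p, with its seed (bases 2 to 8) in capitals, lies on chromosome 1 of GRCm38.p6 (chr1:193507503-193507524, minus strand, RefSeq).

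miR-205-5p: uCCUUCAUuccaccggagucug

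The letters complementary to that seed, ATGAAGG, were searched on the transcribed strand of the longest annotated 3′ UTR of each gene (GENCODE vM1, NCBIM37, a build older than that of the counts). Of the 8 genes, 1 holds it: Tjp1, with 1 match at bases 140 to 146 of a UTR of 1408 bases (chr7:72442313-72442319, minus strand). It is shown with the match in capitals.

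Tjp1 3′ UTR: tggaactgATGAAGGttagcgag

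Over 19915 genes with an annotated 3′ UTR, 10.4% hold these 7 letters. The shorter TGAAGG, which lies inside ATGAAGG, occurs once each in the UTRs of Cldn4, Tjp1, Ocln and Gja1, against 32.3% of all genes. The UTRs of the 8 genes run from 714 bases in Gjb6 to 2396 in Cldn1, and the median over all genes is 893 bases. A match is a description of letters only. Mature microRNAs are not counted in libraries of this kind, so the induction itself was not checked here.

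The control library held 4545 cell barcodes with 55465594 UMIs and the induced library 4264 barcodes with 49733560 UMIs. After removal of cells with 200 or fewer genes, 5000 or more genes, or 10% or more mitochondrial UMIs, 3936 control cells (86.6%) and 3628 induced cells (85.1%) remained, with medians of 12198.5 and 11752.5 UMIs per cell. The 2 libraries shared 11 barcodes, 5 of them among the cells kept. Cells fell into 24 clusters, formed with the junction genes withheld. A cluster was named only from marker genes. 18 clusters were named, and 21 held at least 20 cells in each library and are described. The clusters that carry most of the results are interfollicular epidermis (IFE) basal-like cells in cluster 0 (583 control and 358 induced cells) and cluster 10 (144 and 112), IFE suprabasal-like cells in cluster 7 (168 and 147), upper hair follicle (HF)-like cells in cluster 2 (479 and 412), HF stem cell (HF-SC)-like cells in cluster 3 (354 and 352), inner bulge-like cells in cluster 4 (170 and 381) and hair germ-like cells in cluster 15 (54 and 107). Cluster 2 had all 7 upper HF markers raised, but also 8 of 10 suprabasal markers. Cluster 3 had 6 of 7 HF-SC markers raised, beside 4 of 7 hair germ and 3 of 5 inner bulge markers. Cluster 4 had 4 of 5 inner bulge markers raised, but also 4 of 7 HF-SC markers. Its inner bulge markers, summed, were lower than those of cluster 3 in both libraries. Cluster 11 (149 and 106 cells, led by Tagln, Acta2 and Lgr5) had 5 of 7 hair germ and 4 of 6 smooth muscle markers raised and stays unnamed. With 1 mouse per group there is no replicate, so no test was possible and no p-value is given. Levels are CPM, the UMIs of a gene over all UMIs of the summed cells, scaled to a fixed total, a ratio is the log2 of induced over control, and 95% intervals in brackets cover counting error only, not the difference between mice.

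Over all cells kept, the claudins had the lowest log2 ratios among the abundant members. All 8 members were below 0, Gjb2 only barely. The share of all genes below 0 in these sums was not worked out, so that count is not a result about the members. Cldn1, a claudin needed for the epidermal barrier, was at 981 CPM in the control library and 637 CPM in the induced one (log2 ratio -0.62). Cldn4, a claudin of differentiated epithelium, was at 767 and 536 CPM (-0.52), and Ocln, which encodes occludin, at 86.6 and 68.7 CPM (-0.34). F11r, which encodes the junctional adhesion molecule JAM-A, lay close together at 161 and 155 CPM (-0.06). Tjp1, which encodes the scaffold ZO-1, was at 42.0 and 38.4 CPM (-0.13). Among connexins, Gja1 (connexin 43) was at 269 and 210 CPM (-0.36). Gjb2 (connexin 26) was nearly level at 14.1 and 13.9 CPM (-0.02 [-0.17, 0.14]). Gjb6 (connexin 30) was the scarcest, with 128 and 84 UMIs in the 2 libraries, or 2.53 and 1.85 CPM (-0.45 [-0.87, -0.04]). These sums mix what cells contain with how many cells of each type were caught: cluster 0 had 583 and 358 cells and cluster 4 had 170 and 381. The comparisons below are within clusters.

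**Figure D1:**
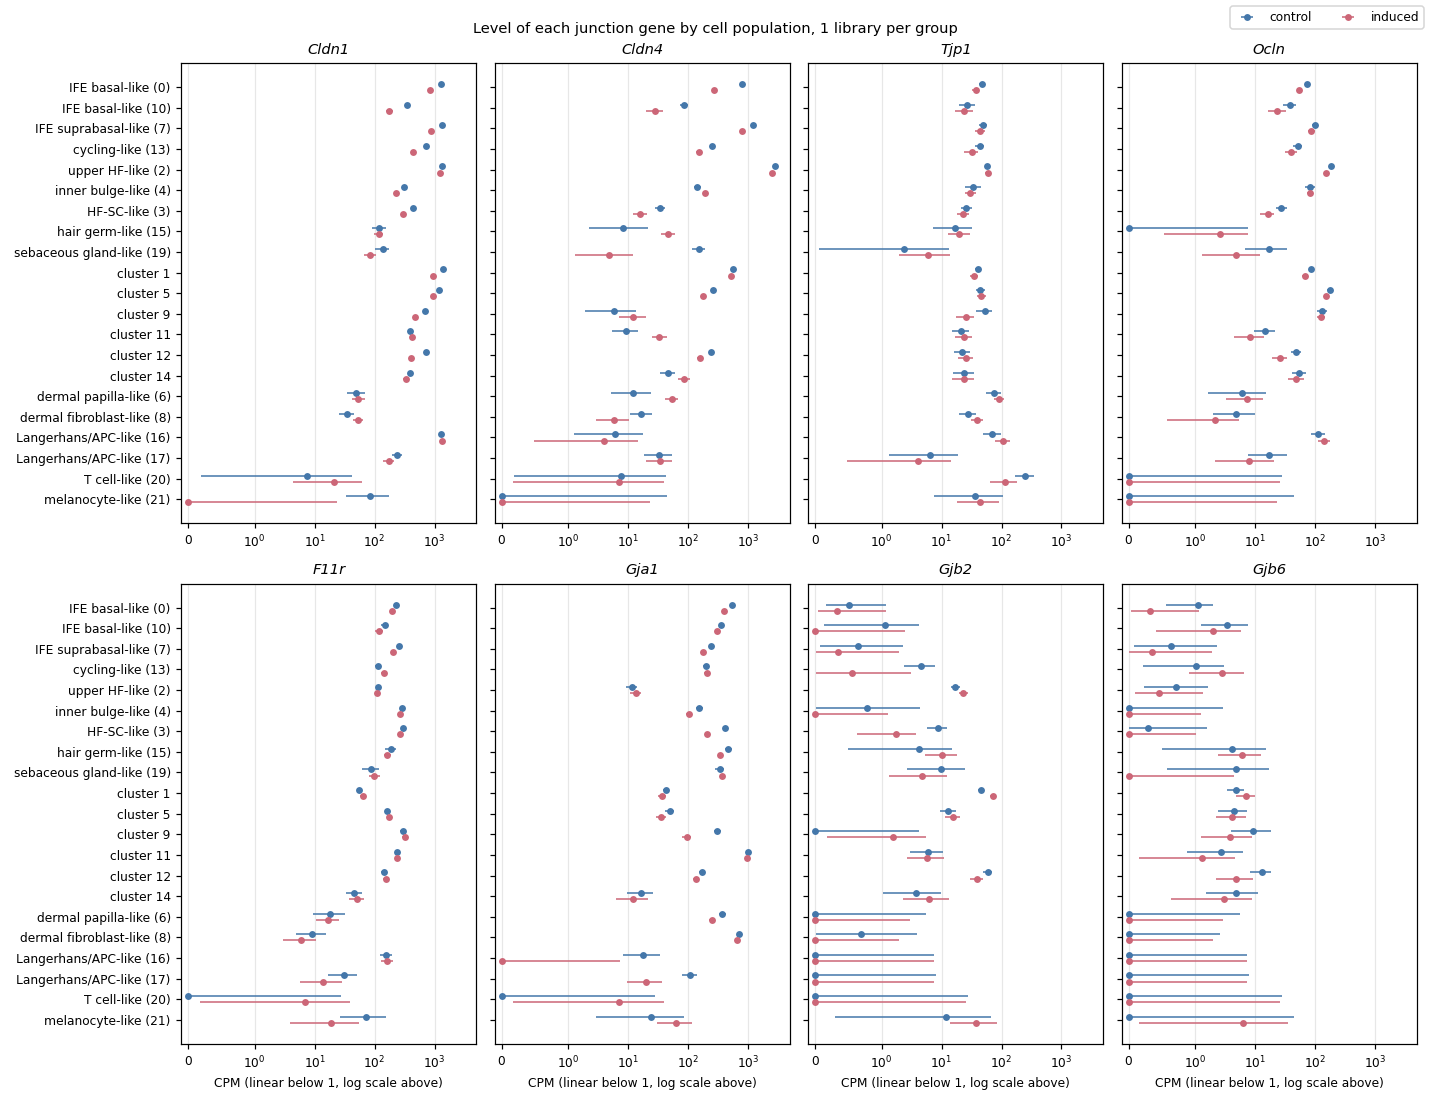
Level of each of the 8 genes, as CPM on a log axis that is linear below 1, in every cluster with at least 20 cells in each library. Points are the control and the miR-205 induced library (1 each) and bars are exact Poisson 95% intervals of the counts; Cldn4 stands highest in upper HF-like cells, Gja1 in cluster 11, and Gjb2 and Gjb6 are low in every cluster.

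Where the genes were used differed sharply between cell types, and the order below ranks clusters by the mean CPM of the 2 libraries. Neighbours in that order are said to overlap where the levels of the 2 libraries in one reach into those of the next, and they are then not ranked against each other. Cldn1 was high in most clusters of the surface epithelium. It stood at 1339 CPM in control and 1218 in induced upper HF-like cells, at 1326 and 887 in IFE suprabasal-like cells, and at 1299 and 828 in IFE basal-like cells of cluster 0. Neighbours in this order overlapped. Cldn1 was lower in the HF-SC-like cells (432 and 296 CPM), in the IFE basal-like cells of cluster 10 (344 and 177 CPM) and in the hair germ-like cells (118 and 116 CPM). First in the order, overlapping the upper HF-like cells, were the Langerhans-like cells of cluster 16, antigen-presenting cells of the epidermis, marked by Cd207 (52 control and 46 induced cells), with 1287 and 1326 CPM. Langerhans cells are known to form tight junctions with keratinocytes when their dendrites reach through the barrier. After thinning every cell to 5000 UMIs, 49 of 49 control and 43 of 45 induced Langerhans-like cells held a Cldn1 UMI. In the same cells Krt14, the keratin of basal keratinocytes, was at 723 and 653 CPM against 18219 and 17055 in cluster 0, and Cldn4 had 3 and 2 UMIs in all. Those 3 and 2 Cldn4 UMIs stand beside 643 and 662 Cldn1 UMIs in the same cells, whereas cluster 0 had 7754 and 1691 Cldn4 UMIs beside 12691 and 5141 of Cldn1. With cells assigned to types from marker UMIs alone the Cldn1 level of this class was 793 and 737 CPM. The dermal fibroblast-like cells of cluster 8, which are not epithelial and whose main claudin was Cldn10 (279 and 110 CPM), had 34.1 and 52.7 CPM of Cldn1, and 8.04% and 10.7% of them held a UMI after thinning. They serve as the comparison for background here.

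Cldn4 was concentrated in differentiated cells. Upper HF-like cells held 57.2% of all its UMIs, at 2836 CPM in control and 2474 in induced. They were followed by IFE suprabasal-like cells (1212 and 796 CPM), without overlap between those clusters. In cluster 1 it was at 565 and 512 CPM and, overlapping it, in IFE basal-like cells of cluster 0 at 794 and 272 CPM. Clusters 5, 12 and 13 lay between 153 and 256 CPM, inner bulge-like cells overlapped them (143.5 and 191.5 CPM), and the other clusters had lower means. In HF-SC-like cells 3.32% of control and 2.07% of induced cells held a UMI after thinning (6.78% and 4.55% at full depth), no more than the 4.46% and 3.33% of dermal fibroblast-like cells, so by the share of cells it was at background there. By level it was at 34.4 and 15.95 CPM against 16.7 and 5.86 CPM.

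Ocln followed Cldn1 more closely than any other member did. Across the 18 named clusters, Pearson's r between the log levels of Ocln and Cldn1 was 0.90 in the control and 0.89 in the induced library. This is a description over 18 clusters that share a library, and 10802 genes were compared. Ocln was highest in upper HF-like cells, at 185 and 151 CPM, and near it in cluster 5 (led by Serpinb11, Ctgf and Igfbp4), at 176 and 153 CPM. Langerhans-like cells had 112 and 142 CPM, so they carried both Cldn1 and Ocln with very little Cldn4. HF-SC-like cells had 27.5 and 16.2 CPM, and dermal fibroblast-like cells 4.87 and 2.13 CPM.

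F11r had its highest levels in HF-SC-like cells, inner bulge-like cells and an unnamed cluster. Cluster 9 (led by Pthlh, Bdnf and Wif1) had 302 and 317 CPM, HF-SC-like cells 302 and 262 CPM, and inner bulge-like cells 291 and 263 CPM, and these neighbours overlapped. Cluster 11 (239 and 241 CPM) came next and overlapped IFE suprabasal-like cells, with 254.4 and 205.3 CPM. Dermal fibroblast-like cells had 9.05 and 5.86 CPM.

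The highest levels of Tjp1 were outside the epithelium. The Trdc-bearing T cell-like cells of cluster 20 had 243 CPM in the control and 112 CPM in the induced library, from 32 and 16 UMIs. Langerhans-like cells had 70.0 and 104 CPM, and dermal papilla-like cells (cluster 6, the signalling mesenchyme at the follicle base) 75.5 and 90.7 CPM, and these overlapped. Among epithelial clusters the upper HF-like cells led with 57.6 and 59.5 CPM. HF-SC-like cells were at 25.8 and 23.1 CPM.

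Gja1 was high in clusters of the basal layer, the dermis, the sebaceous gland and part of the follicle. Its level was highest in cluster 11, at 986 CPM in the control and 963 CPM in the induced library, then in dermal fibroblast-like cells (703 and 653 CPM), then in IFE basal-like cells of cluster 0 (532 and 403 CPM). Hair germ-like cells had 468 and 347 CPM and HF-SC-like cells 414 and 204 CPM. Sebaceous gland-like cells had 341 and 376 CPM, overlapping hair germ-like cells. IFE suprabasal-like cells had 242 and 177 CPM and inner bulge-like cells 154 and 103 CPM. In upper HF-like cells, where Cldn4 was highest, it was at 11.5 and 13.6 CPM, and 3.91% and 4.04% of these cells held a UMI after thinning. The endothelial-like cluster 23, with 7 and 14 cells, had 127 and 136 Gja1 UMIs but is too small to rank.

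The epidermal connexins Gjb2 and Gjb6, known to be induced in wound-edge and activated keratinocytes, were found in few cells. Cluster 1 (621 and 291 cells, led by Ccl2, Cxcl12, Fst and Aldh3a1) held 49.8% of all Gjb2 UMIs, at 45.1 CPM in the control and 73.3 CPM in the induced library. Cluster 12 (led by Krt8, Krt18 and Ifnk) overlapped it, at 58.7 and 38.4 CPM. IFE basal-like cells of cluster 0 had 5 and 2 Gjb2 UMIs in 583 and 358 cells. Gjb6 was at 12.8 and 4.86 CPM in cluster 12, 9.26 and 3.80 CPM in cluster 9 and 4.83 and 7.02 CPM in cluster 1, and these neighbours overlapped. In cluster 1, 5 thinned control cells held both genes where the shares of each gene alone give 0.648, and 3 induced cells where they give 0.342. The pair are neighbours on chromosome 14 of GRCm38.p6, with Gjb2 at chr14:57098602-57104702, Gjb6 at chr14:57123301-57133611 and 18598 bases with no annotated gene between them. No UMI of either gene was found in dermal papilla-like, Langerhans-like or T cell-like cells of clusters 6, 16 and 20. For each gene this allows a level of up to 3 UMIs in the cluster.

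In the HF-SC-like cells the question is how junction genes stood after miR-205 induction in the stem cell compartment that the study examined. HF-SC-like cells were alike in depth, with medians of 9682.5 and 9918.5 UMIs and 5.70% and 5.80% mitochondrial UMIs, while the stress-response gene Fos was at 3165 and 4494 CPM, whose part in the results was not tested. Of the 8 genes, 7 reached 20 UMIs over both libraries, and 5 of them were lower in the induced library by a log2 ratio of at least 0.5: Cldn1, Cldn4, Ocln, Gja1 and Gjb2. Over all 9575 genes tested in these cells, 8.74% were lower by that much. None of the 7 was higher by that much, against 17.3% of all genes, and the median ratio of all genes was 0.09. Tjp1 and F11r stayed within the threshold, and Gjb6 had 1 and 0 UMIs. The count of 5 depends on the processing: it was 3 with mitochondrial UMIs below 5%, 3 without the highest-scoring doublets and 1 with cells assigned from marker UMIs, where Cldn4 (0.23) and Ocln (0.074) lay above 0.

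Gja1 was counted 1443 times in control and 718 times in induced HF-SC-like cells, or 414 and 204 CPM, a log2 ratio of -1.02 [-1.15, -0.89]. The 5 cells with most Gja1 UMIs held 11.02% of them in the control and 23.5% in the induced library, and 226 of 354 control and 139 of 352 induced cells held at least 1. After thinning to 5000 UMIs, 55.9% of 331 control cells [50.4, 61.3] and 29.9% of 338 induced cells [25.0, 35.1] held a Gja1 UMI. These intervals take the cells of 1 mouse as separate units and do not cover the difference between mice. At full depth the shares were 63.8% and 39.5%. The ratio stayed below 0 under all 12 other ways of processing, between -1.53 and -0.37. Those that change only the minimum of UMIs leave a ratio as it was and could not move it. The ratio was past the threshold in 11 of the 12. The exception was cells assigned from marker UMIs alone, a class of 313 control and 622 induced cells that holds 43.5% of the cells of cluster 3.

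Cldn1 was counted 1506 and 1041 times in HF-SC-like cells, or 432 and 296 CPM (-0.54 [-0.66, -0.43]). Its share of thinned cells was 58.6% [53.1, 64.0] in the control and 44.1% [38.7, 49.6] in the induced library. The share and the level thus lay in the same direction. The ratio was between -0.68 and -0.33 under the other settings and past the threshold in 8 of 12. Ocln had 96 and 57 UMIs, or 27.5 and 16.2 CPM (-0.76 [-1.26, -0.27]), and 9.37% and 5.33% of thinned cells held it. Cldn4 had 120 and 56 UMIs (34.4 and 15.95 CPM), of which the top 5 cells held 84.2% and 80.4%. Gjb2 had 30 and 6 UMIs, all of them in 5 and 2 cells. The Cldn4 and Gjb2 ratios in this cluster therefore rest on a few cells, and the count of 5 members above includes both. In dermal fibroblast-like cells, the comparison for background, Cldn4 was lower too, with 24 and 11 UMIs (-1.48 [-2.69, -0.43]). Upper HF markers, of the cells where Cldn4 was highest, stood at 2310 CPM summed in control and 2700 in induced HF-SC-like cells, and their part in the result was not tested. F11r was at 302 and 262 CPM (-0.21 [-0.34, -0.08]) and Tjp1, the gene with the seed match, at 25.8 and 23.1 CPM (-0.16 [-0.61, 0.29]).

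Cldn1 and Gja1 were found together in the same cells more often than their single shares give. In the control, 131 of 331 thinned HF-SC-like cells held a UMI of both, where the shares of each gene give 108. In the induced library 68 of 338 held both, where the shares give 44.5. Cells that held either gene were fewer in the induced library, and the excess of cells with both was seen in each.

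**Figure D2:**
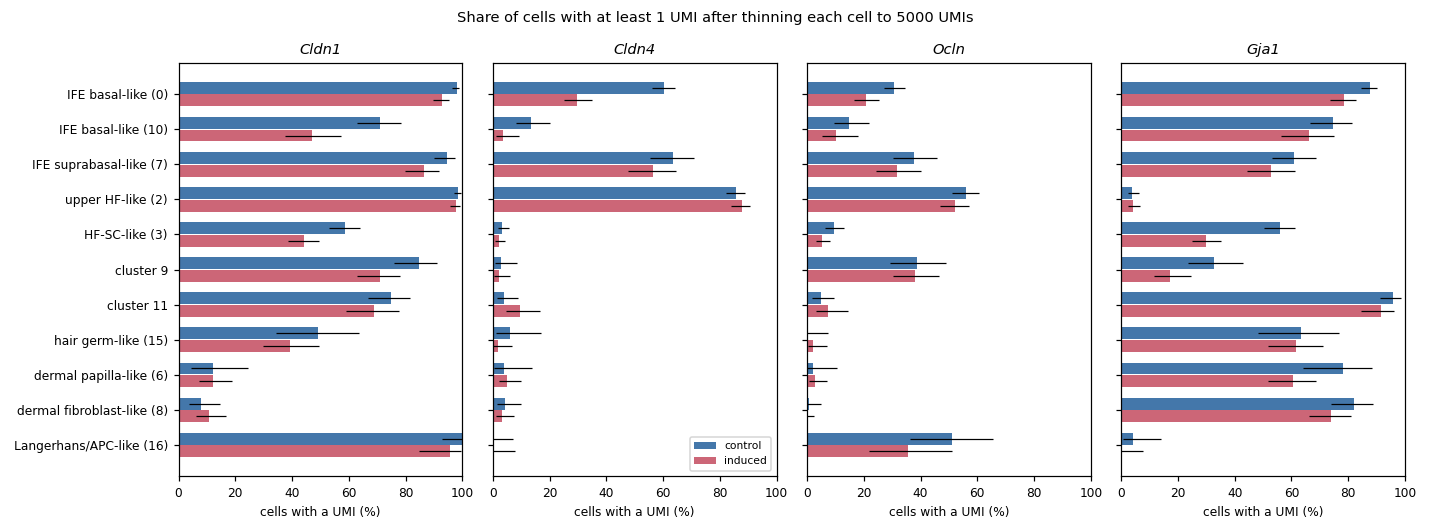
Share of cells (%, by cluster) with at least 1 UMI of Cldn1, Cldn4, Ocln or Gja1 after every cell was thinned to 5000 UMIs, in the control and the miR-205 induced library, with exact binomial 95% intervals. The shares were 55.9% and 29.9% for Gja1 in HF-SC-like cells and 60.2% and 29.8% for Cldn4 in IFE basal-like cells of cluster 0. The intervals take cells as separate units and do not cover the difference between mice.

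IFE basal-like cells differed in another way, with Cldn4 foremost. In cluster 0, 6 genes were tested and 2 were lower past the threshold, Cldn1 and Cldn4, against 6.68% of all 9906 genes tested. Cldn4 had 7754 and 1691 UMIs, or 794 and 272 CPM (-1.54 [-1.62, -1.47]), with 6.51% and 17.9% of them in the top 5 cells. Its share of thinned cells was 60.2% [56.1, 64.3] and 29.8% [25.1, 34.9], and at full depth 72.2% and 41.1%. So both the level and the share of cells with Cldn4 were lower. Cldn1 was at 1299 and 828 CPM (-0.65 [-0.70, -0.60]), and 97.9% and 92.9% of thinned cells held a UMI, so this share was near its upper limit. Both ratios were past the threshold under all 12 other settings, which include those that change only the minimum of UMIs and leave a ratio as it was. For 1 of the 12, cells assigned from marker UMIs, the class held 2284 control and 1623 induced cells, far more than cluster 0. The same class was set against cluster 10. Gja1 (532 and 403 CPM, -0.40), Ocln (73.3 and 54.9 CPM, -0.41), Tjp1 (46.7 and 37.2 CPM, -0.33) and F11r (231 and 194 CPM, -0.26) were below 0 with intervals beyond 0, but within the threshold.

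The second IFE basal-like cluster, cluster 10 (led by Ly6a and Klf2), had 3 of 6 tested genes lower past the threshold, Cldn1, Cldn4 and Ocln, against 10.6% of all genes there. Cldn1 was at 344 and 177 CPM (-0.96 [-1.17, -0.75]) and 70.9% and 47.2% of thinned cells held it. Cldn4 had 149 and 42 UMIs (-1.60 [-2.14, -1.11]), and Ocln 67 and 35 (-0.71 [-1.36, -0.11]). Gja1 was at 351 and 307 CPM (-0.19). The top 5 cells held 70.5% and 88.1% of the Cldn4 UMIs of this cluster.

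In IFE suprabasal-like cells 2 of 6 genes tested were lower past the threshold, against 8.97% of all genes. They were again Cldn1 (1326 and 887 CPM, -0.58) and Cldn4 (1212 and 796 CPM, -0.61). Gja1 was at 242 and 177 CPM (-0.45). Upper HF-like cells gave a different picture: none of 7 genes tested was lower past the threshold, against 5.88% of all genes. Cldn4 was at 2836 and 2474 CPM (-0.20 [-0.23, -0.17]), Cldn1 at 1339 and 1218 CPM (-0.14 [-0.18, -0.09]) and Ocln at 185 and 151 CPM (-0.30). The shares of thinned cells were 85.7% and 87.6% for Cldn4 and 98.5% and 97.7% for Cldn1. Whether the ratios differ between clusters was not tested, since each rests on the same 2 mice.

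**Figure D3:**
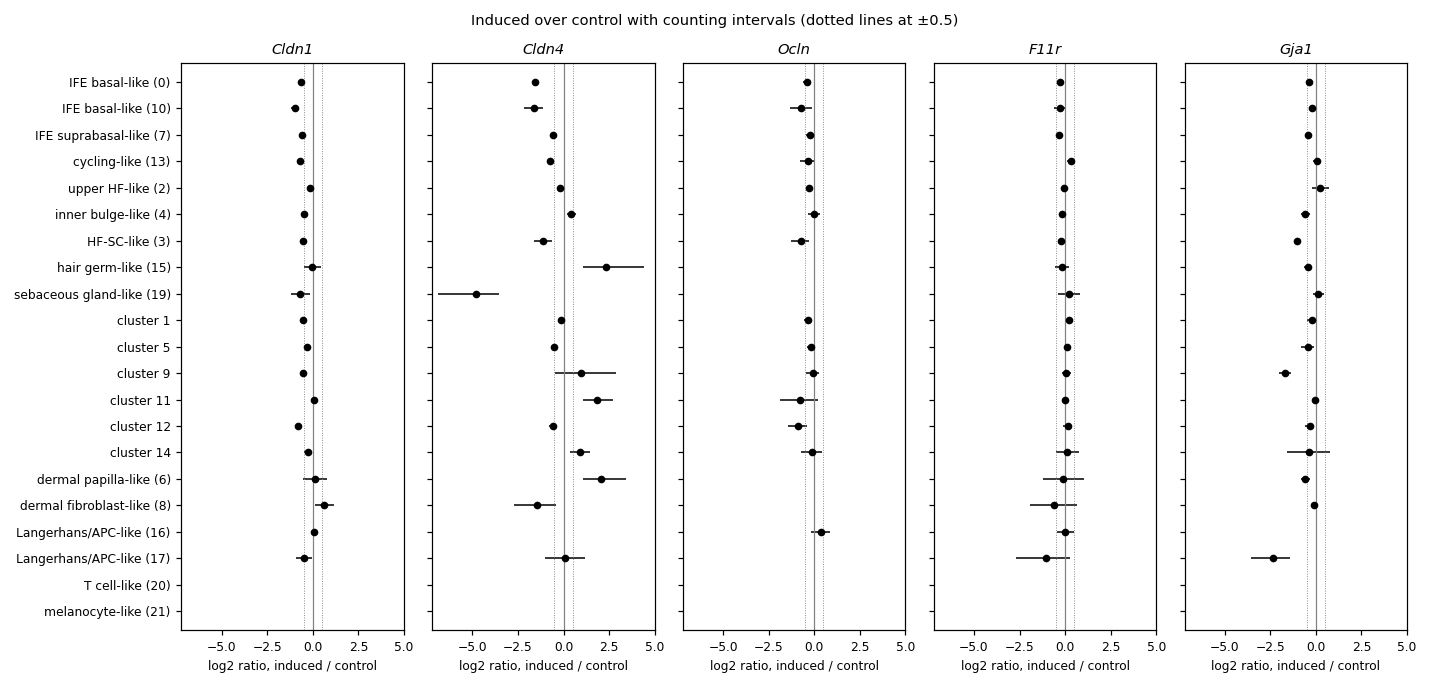
Log2 ratio of induced over control for Cldn1, Cldn4, Ocln, F11r and Gja1 in each cluster in which the gene had at least 20 UMIs, with exact 95% intervals for counting error only (1 library per group); lines mark the threshold of 0.5 either way. Cldn1 and Gja1 lie mostly left of 0, Cldn4 lies on both sides, and F11r stays nearer 0.

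Inner bulge-like cells had 1 of 6 tested genes lower past the threshold, Gja1 (154 and 103 CPM, -0.58), against 8.23% of all genes. Cluster 9 had 3 of 6, Cldn1, Tjp1 and Gja1, against 12.4%, and Cldn4 higher, with 5 and 16 UMIs, against 12.6%. Its Gja1 was at 309 and 95.1 CPM (-1.70 [-2.02, -1.39]), although 44.6% and 41.6% of the UMIs came from the top 5 cells. The cycling-like cells of cluster 13 had 2 of 6, Cldn1 and Cldn4, against 12.0%, and the unnamed cluster 12 had 5 of 8, against 13.4%. F11r was higher in cycling-like cells, at 115 and 145 CPM (0.33 [0.09, 0.57]), within the threshold.

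The hair germ holds the cells below the bulge that fuel new hair growth, and more of its 7 markers were raised in cluster 15 (6) and cluster 11 (5) than in cluster 3 (4). Gja1 and Cldn1 lay within the threshold in both. Cluster 11 had Gja1 at 986 and 963 CPM (-0.03 [-0.13, 0.07]) and Cldn1 at 393 and 417 CPM (0.08 [-0.07, 0.24]). Of 7 genes tested 1, Ocln with 27 and 13 UMIs, was lower past the threshold, against 14.0% of all genes. In hair germ-like cells of cluster 15 none of 5 tested was lower past it, against 16.3%. Gja1 was at 468 and 347 CPM there (-0.44 [-0.67, -0.19]), with 63.3% and 61.8% of thinned cells holding a UMI. Its ratio stayed below 0 under the 10 other settings that gave a value and was past the threshold in 2. It ran from -0.72 with a mean over cells to -0.086 without the 5 richest cells. With both clusters summed the Gja1 ratio was -0.33, but the control cells were 149 and 54 of these clusters and the induced cells 106 and 107, and with the clusters weighted equally, a choice made after seeing the data, it was -0.15.

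Cldn4 was on the other side in several clusters where it was sparse. It had 17 and 52 UMIs in cluster 11 (1.83 [1.04, 2.74]), where 13.5% of all genes were higher past the threshold, 4 and 54 in hair germ-like cells (2.33 [1.05, 4.42]), 8 and 67 in dermal papilla-like cells (2.08 [1.09, 3.42]) and 48 and 84 in cluster 14 (0.90 [0.38, 1.45]), where 12.8% were. In hair germ-like cells, where 18.4% of all genes were higher past the threshold, 98.1% of the induced UMIs came from 5 cells, and without them the ratio was 0.28. In dermal papilla-like cells, where 12.7% of all genes were higher past the threshold, the share was 89.6% and the ratio without those cells 0.21. The share of thinned hair germ-like cells with Cldn4 went the other way, 6.12% and 1.96%. Summed upper HF markers stood higher in the induced library in each, at 4638 and 6044 CPM in cluster 11, 1809 and 2416 CPM in hair germ-like cells and 510 and 617 CPM in dermal papilla-like cells. Their part in the result was not tested.

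Dermal and immune cells are not targeted by the transgene. Gja1 was at 703 and 653 CPM in dermal fibroblast-like cells (-0.11 [-0.23, 0.02]). In dermal papilla-like cells it was at 374 and 250 CPM (-0.58 [-0.83, -0.33]), the 1 of 5 tested genes lower past the threshold, against 17.4% of all genes. Summed dermal papilla markers stood at 3624 and 2158 CPM in that cluster, and their part in the result was not tested. With cells assigned from marker UMIs, a class that takes in 20.4% of the cluster, the Gja1 ratio was 0.11. Cldn1 in Langerhans-like cells of cluster 16 was at 1287 and 1326 CPM (0.04 [-0.12, 0.20]), while it was lower in basal-like and suprabasal-like keratinocytes. In cluster 17, also antigen-presenting-like, Cldn1 was lower too, at 241 and 174 CPM (-0.47 [-0.89, -0.05]), within the threshold. Under other settings that ratio ran from -1.88 to 0.45. Tjp1 in T cell-like cells had 32 and 16 UMIs (-1.09 [-2.07, -0.20]), where 16% of all genes were lower past the threshold, and in Langerhans-like cells 35 and 52 (0.57 [-0.07, 1.23]), where 18.4% were higher. In dermal fibroblast-like cells, 2 of 5 tested genes were lower (Cldn4 and F11r, against 8.19%) and 2 higher (Cldn1 and Tjp1, against 17.3%). The other antigen-presenting-like cluster, cluster 17 (led by Lyz2 and Mrc1), had 2 of 4 lower (F11r and Gja1, against 21.6%), and sebaceous gland-like cells 2 of 4 (Cldn1 and Cldn4, against 19.8%), each from few UMIs.

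The members were counted over the 21 clusters. In single clusters 5.88% to 21.6% of all tested genes were lower past the threshold and 9.45% to 21.4% were higher. The median ratio of all tested genes lay between -0.06 and 0.09. How many of all genes reach such counts over as many clusters was not worked out. Cldn1 reached 20 UMIs in 19 clusters, was below 0 in 15 and past the threshold lower in 9 and higher in 1. Gja1 was tested in 18, below 0 in 15, and past the threshold lower in 5 and higher in none. Ocln was tested in 14, below 0 in 13, and past the threshold lower in 4 and higher in none. Cldn4 was tested in 18, and was past the threshold lower in 9 and higher in 5. These 4 genes were thus mostly lower in the induced library, with Cldn4 divided. Tjp1, below 0 in 10 of 18, and F11r, below 0 in 10 of 19, stood on either side. Gjb2 was tested in 6 clusters and below 0 in 3, and higher in cluster 1 (0.70 [0.48, 0.92]), where 52.4% of its induced UMIs came from 5 cells. In that cluster Gjb6 was higher too (38 and 30 UMIs, 0.55 [-0.20, 1.27]), and 9.61% of all genes were higher past the threshold, while Cldn1 was the 1 of 8 members lower past it (1367 and 958 CPM, -0.51), against 6.61%. In cluster 5 the 1 of 8 was Cldn4 (256 and 178 CPM, -0.53), against 7.43%. The clusters come from the same 2 mice and are not replicates.

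A wider set of junction genes, members included, was taken from 3 lists. These were 37 strand genes (claudins, occludin and its relatives, junctional adhesion molecules), 18 scaffold genes and 23 connexins and pannexins. Of these, 36, 17 and 23 were in the tables, and 19, 17 and 13 had 20 UMIs or more. In HF-SC-like cells 31 list genes were tested: 22 were below 0, 11 were lower past the threshold and 4 higher, against 8.74% and 17.3% of all genes, with a median log2 ratio of -0.17 against 0.09 over all genes. By kind, the median was -0.54 over 9 strand genes, -0.90 over 6 connexins and pannexins, and -0.08 over 16 scaffold genes, of which 2 were lower and 3 higher. The members are part of these lists, and all counts and medians here include them. In HF-SC-like cells 5 of the 11 lower genes are the members named above, and the strand median is the value of Cldn1 itself. Counts without the members were not worked out, so the lists are not separate evidence. In IFE basal-like cells of cluster 0, 25 of 30 were below 0, 7 lower and 1 higher, against 6.68% and 10.2% of all genes (median -0.36 against 0.02). In cluster 10, 19 of 22 were below 0, 8 lower and 2 higher, against 10.6% and 11.1% (median -0.25). In cluster 11, 14 of 28 were below 0 (median 0.00), and in hair germ-like cells 12 of 19 (median -0.19 against 0.00). Upper HF-like cells had 16 of 34 below 0, none lower past the threshold and 4 higher, against 5.88% and 9.45% of all genes.

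Other genes were named by a rule of at least 100 UMIs and a log2 ratio of at least 0.5 either way. In HF-SC-like cells Mpp5, which encodes the polarity scaffold PALS1, had 323 and 218 UMIs (-0.58 [-0.83, -0.32]). Ybx3, which encodes a tight-junction-associated DNA- and RNA-binding protein, was higher, with 780 and 1572 UMIs (1.00 [0.88, 1.13]). In cluster 0 Crb3, a polarity gene (96.6 and 62.2 CPM, -0.63), and Magi2 (132 and 56 UMIs, -0.58) were lower. In cluster 10 Crb3 (-0.57) and Mpp5 (-0.56) were lower and Gjb5 (0.70) higher. Ybx3 was higher past the threshold in all 21 clusters, with ratios from 0.66 to 1.71. They include cluster 0 (1.14), cluster 10 (1.23), cluster 11 (0.92) and hair germ-like cells (0.73), and cells the transgene does not target, such as dermal fibroblast-like (0.89) and Langerhans-like cells (1.27). In cluster 11 Crb3 (-0.58) and the pannexin Panx1 (-0.61) were lower, and in hair germ-like cells Cldn10 was higher (26 and 100 UMIs, 0.66 [0.04, 1.36]).

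A further list holds 9 tight junction genes that the study linked to miR-205 by CLIP, in a form that ligates a microRNA to its target site. Among them are Cldn1, Cldn4, Runx1, Dlg1, Ppp2cb, Pard6b, Rapgef2 and Scrib. The study also lists Tjp1 as bound by miR-205, but under actin filament organization and cell adhesion, so Tjp1 is not among the 9. In HF-SC-like cells 7 of the 9 were below 0, 4 lower past the threshold and 2 higher, against 8.74% and 17.3% of all genes (median -0.29). The lower ones include the members Cldn1 and Cldn4. Rapgef2, a guanine nucleotide exchange factor, had 383 and 261 UMIs (-0.56 [-0.80, -0.33]). The phosphatase subunit gene Ppp2cb (32 and 72 UMIs, 1.15 [0.54, 1.81]) and the polarity gene Scrib (61 and 98 UMIs, 0.67 [0.20, 1.16]) were higher. In cluster 0, 4 of the 9 were below 0 and the median was 0.05, with Ppp2cb higher there too (161 and 316 UMIs, 1.62 [1.35, 1.91]). Like Ybx3, Ppp2cb was higher past the threshold in every cluster where it was tested. They include upper HF-like cells (1.52) and cluster 11 (2.03). Cells the transgene does not target are among them, such as dermal papilla-like (2.50) and dermal fibroblast-like cells (1.23).

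**Figure D4:**
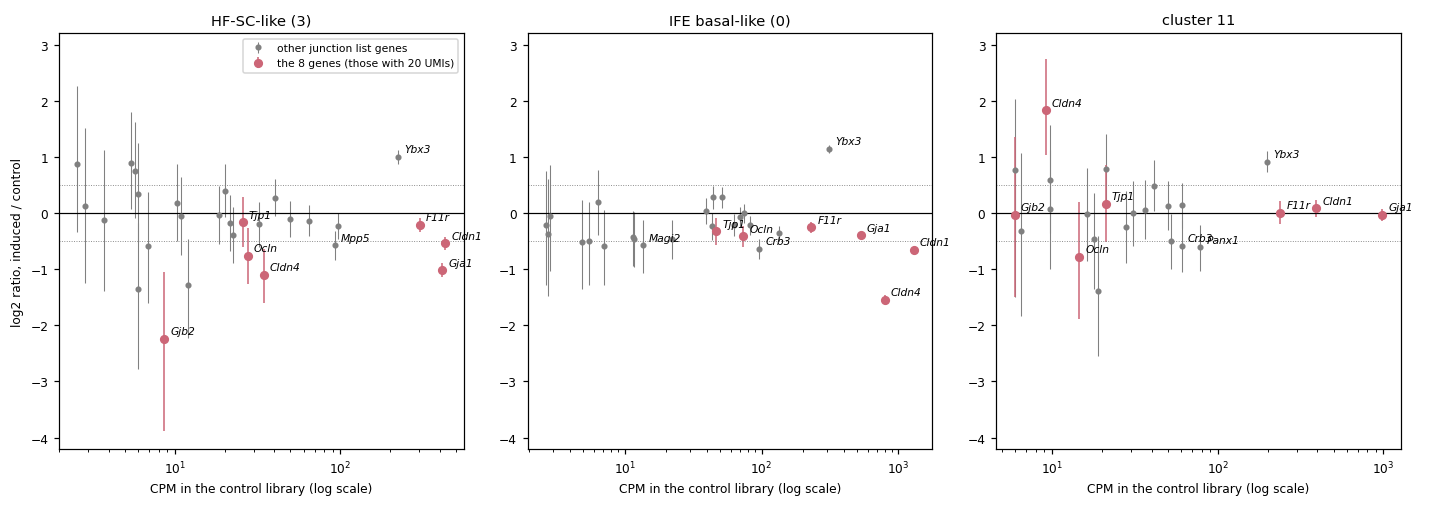
Log2 ratio of induced over control for tested genes of the 3 junction lists, against its CPM in the control library on a log axis, with 95% intervals for counting error, in HF-SC-like cells (cluster 3), IFE basal-like cells (cluster 0) and cluster 11. The members are drawn as larger points. Most genes lie below 0 in clusters 3 and 0 (medians -0.17 and -0.36) and lie on both sides of 0 in cluster 11 (median 0.00), while Ybx3 lies above 0.5 in each.

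Genes whose level most resembled that of a member across the 18 named clusters were ranked by Pearson's r in the control library, and the r of the induced library is a look at the same clusters in the other mouse. For Cldn4 they were Ankrd22 (0.91 and 0.79), Cgn, which encodes the tight junction protein cingulin (0.90 and 0.82), and AA986860 (0.90 and 0.84). For Cldn1, Cxcl16 (0.91 and 0.83) and Plet1 (0.87 and 0.79) stood beside Ocln. For F11r the nearest was Epha2 (0.90 and 0.81), followed by Wdr53 (0.87 and 0.50) and Palmd (0.86 and 0.72). For Tjp1 the nearest was Rfx7 (0.86 and 0.19). For Gja1 they were Wdr34 (0.90 and 0.43), Spice1 (0.85 and 0.27) and Ets2 (0.85 and 0.70). For Gjb6 the nearest was Ppcs (0.96 and 0.085). For Gjb2 they were Tpd52l1 (0.82 and 0.79), Kprp (0.81 and 0.51) and Zswim1 (0.78 and -0.11). Several of these values were much lower in the induced library. Among the members themselves Cldn4 and Ocln had 0.75 and 0.66, Cldn1 and Cldn4 0.68 and 0.61, and Cldn1 and Gja1 0.09 and -0.23. F11r had 0.26 and 0.47 with Cldn4, and 0.43 and 0.44 with Gja1. Across clusters Cldn1, Cldn4 and Ocln were thus the most alike of these pairs.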

How the data were processed

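The authors aligned and counted reads with Cell Ranger (software version 3.0.1 in the matrix header) against mm10, and deposited raw UMI counts per gene and cell barcode, 1 table per library, without normalization. Counts of 31053 features were read as deposited, and 0 other columns of sample values were found. Cells with more than 200 and fewer than 5000 genes and below 10% mitochondrial UMIs were kept. Repeated symbols (36) were not members. Scrublet in scanpy 1.11.5 marked 4 and 5 barcodes automatically, so leaving out the 165 and 145 highest scoring ones (0.8% per 1000 cells) was an alternative. Both libraries were integrated in Seurat 5.3.0 (R 4.3.3; 2000 variable genes without the junction genes, 30 dimensions, Louvain resolution 0.8).

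A cluster was named when at least 3 of a class's markers were raised at least 2-fold, that class had the largest raised share, and no other class had more markers among the top 10 genes. This naming rule, and the rule for matching clusters between settings (50% of cells shared both ways), were set after clusters were seen. Of 24 clusters, 18 were named. UMIs were summed per cluster and library and divided by all UMIs of those cells (CPM). Poisson intervals (95%) are given for levels and exact conditional intervals for log2 ratios (pseudocount 0.5 UMI, at least 20 UMIs over both libraries, threshold 0.5). Shares are of cells thinned to 5000 UMIs with Clopper-Pearson intervals, and shallower cells (304 and 328) were left out. The limit for a count of 0 is 3 counts. No count model was fitted, since each group is 1 mouse. The ratio script was tested on simulated HF-SC-like counts of 9575 genes: of 200 genes changed by a log2 ratio of 1, 199 had the right sign and 169 an interval beyond 0. The simulated counts were Poisson, as the intervals assume, without UMIs gathered in a few cells. The simulation therefore cannot show how the intervals hold for such genes.

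All members are named in each comparison, other junction genes by at least 100 UMIs and a log2 ratio of at least 0.5 in clusters 0, 3, 10, 11 and 15, and the 3 most alike genes by Pearson's r (selected ones are printed). Some junction genes that met the rule are not reported here, in the text or the plot of the lists, but are part of the list counts and medians. The members and lists were chosen with earlier results of these data known. Positions are from RefSeq GRCm38.p6, UTRs from GENCODE vM1 (NCBIM37). The alternatives were other totals, size factors, a mean over cells, other UMI minimums and pseudocount, the 5 richest cells left out, a 5% mitochondrial limit (2046 and 1846 cells), doublets left out, resolution 1.2, junction genes kept in clustering, and cells assigned from marker UMIs.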

Additional observations from a re-analysis of the deposited data

Results flagged for a closer look

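Each of these was picked out because a member was past the threshold of 0.5 in 1 direction in one cluster and in the other direction in other clusters, with the interval beyond 0. In no case was the difference between clusters tested, since 1 mouse per group gives no test. Cldn4 was higher in the induced library in dermal papilla-like cells (log2 ratio 2.08), in cluster 11 (1.83), in cluster 14 (0.90) and in hair germ-like cells (2.33), where 9 other clusters had it lower. Without the 5 cells with most Cldn4 UMIs in each library the ratio was 0.21 in dermal papilla-like cells and 0.28 in hair germ-like cells. Cldn1 was higher in dermal fibroblast-like cells (0.62, from 49 and 99 UMIs), where 9 other clusters had it lower. The top 5 cells held 57.1% and 66.7% of those UMIs, and summed upper HF markers were at 238 and 601 CPM. Gjb2 was higher in cluster 1 (0.70) and lower in HF-SC-like cells (-2.24) and cluster 12 (-0.61), and without its 5 richest cells the cluster 1 ratio was 0.27.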

How the results depend on the processing

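Over 122 member log2 ratios and 1231 values under other settings, 1170 had the same sign. The 1231 values include 87 with at least 100 UMIs and 115 with no minimum of UMIs. Those settings leave a ratio as it was, so these values could not change sign. Of the 61 with the other sign, 10 were of ratios past the threshold and 51 of ratios within it. All told 1120 values stayed within the counting interval, and the 10 that turned from past the threshold are given here. The counts of members lower past the threshold, 5 in HF-SC-like cells, were 3 with mitochondrial UMIs below 5% (Cldn4, Ocln, Gja1), 3 without the highest-scoring doublets (Ocln, Gja1, Gjb2) and 1 with cells assigned from marker UMIs (Cldn1). In cluster 0 the count of 2 became 4 with mitochondrial UMIs below 5%. In cluster 10 the count of 3 became 5 with no minimum of UMIs. In cluster 11 the count of 1 became 0 with at least 100 UMIs or mitochondrial UMIs below 5%, and 2 with no minimum or without the 5 richest cells. In cluster 15 the count of 0 became 1 with a mean over cells or with resolution 1.2. With cells assigned from marker UMIs, the median of the junction list turned to 0.032 in the HF-SC class and moved to -0.12 in the IFE basal class, and Cldn4 (0.23), Ocln (0.074), Tjp1 (0.026) and F11r (0.039) in HF-SC-like cells, the last 2 of them within the threshold before, and Gja1 in dermal papilla-like cells (0.11) turned. Without the 5 richest cells the median was -0.094 in cluster 11 and 0.44 in cluster 15, and Gjb6 in cluster 1 (-0.55), Cldn4 in dermal fibroblast-like cells (0.95), Gjb2 in cluster 12 (0.45) and Cldn1 in sebaceous gland-like cells (0.67) turned. Resolution 1.2 turned Cldn1 in dermal fibroblast-like cells (-0.34), mitochondrial UMIs below 5% turned Cldn4 in cluster 9 (-2.48), and a mean over cells turned Cldn4 in cluster 12 (0.067). The cause was not tested. With mitochondrial UMIs below 5%, 12 of 21 clusters could be matched, and the 9 others, hair germ-like cells among them, gave no value. Leaving out a replicate was not possible with 1 library per group. No paired analysis was possible because each group is 1 library. Gjb2 and Gjb6 are limited by depth: in HF-SC-like cells 36 and 1 UMIs of them were counted in all.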
